A study of Mus musculus with 12 samples.

Results

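The Hox genes are the homeobox transcription factor genes that lie in 4 clusters in the mouse genome. They were followed here in bulk RNA of B16 F1 tumors grown in the brain. The members were the 38 listed Hox genes that map to rows of the deposited count table, out of 47069 genes in that table. Of these, 10 were Hoxa genes (chr6:52162417-52260880), 10 Hoxb genes (chr11:96194316-96368256), 9 Hoxc genes (chr15:102921103-103036852) and 9 Hoxd genes (chr2:74668310-74765142), with spans from the GRCm38 annotation. Their number was set by gene name, and they were chosen by a rule that also reads their levels in each library and group, with those levels already known. Which members are expressed, and their levels by library and group, are therefore given as a description. The tests between groups were made on differences already known, so each p sets a difference against the spread between libraries and is no independent support.

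B16 F1 is a pigmented melanoma cell line derived from a C57BL/6 mouse. Per the labels, 100000 B16 cells were implanted into the brain of C57BL/6 mice and each tumor was taken after 9 days. The 12 libraries formed 4 groups of 3, all of RNA from the intracranial tumor. The intracranial IgG group carried only the brain tumor and received control IgG. The intracranial therapy group also carried only the brain tumor and received antibodies to the checkpoint receptors PD-1 and CTLA-4. The both-tumor IgG and both-tumor therapy groups also carried an extracranial tumor and received the same IgG or the same antibody pair. Mouse age and sex, and the dose and times of the antibodies, are not given in the sources used here.

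Hox genes pattern the body axis from head to tail, and their order along a cluster matches the order of the regions in which they act. Genes with the same number in different clusters are paralogs; groups 1 to 3 act toward the hindbrain, groups 4 to 8 in the neck and trunk, and groups 9 to 13 in the lower trunk, tail and limbs. The forebrain develops without Hox expression. Hox proteins bind DNA with TALE homeodomain cofactors of the PBX and MEIS families, and in cells that do not use a cluster Polycomb complexes keep it silent through methylation of histone H3.

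Library totals lay between 18427495 and 22294182 reads, and Hox genes took 0.00528% to 0.0104% of them, or 1045 to 2242 reads a library. The melanoma label was checked on its markers, with 12 of 12 melanocyte genes above 1 FPKM, with a summed level of 11788 to 17285 FPKM in every library. FPKM scale a read count by gene length and library total. The brain part of the tissue varied far more. The summed level of 12 neuron markers was 178 to 353 FPKM in the intracranial IgG group, 55.01 to 57.3 FPKM under therapy without an extracranial tumor, 55.8 to 416 FPKM in the both-tumor IgG group and 307 to 935 FPKM in the both-tumor therapy group. In the both-tumor IgG group, replicate 2 stood apart with the value of 55.8 FPKM, and its library name in the labels has another ending than those of the other 11.

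The tumors held a Hoxa program with a single strong Hoxd gene. Of the 38 members, 8 had a mean of at least 1 FPKM over the 12 libraries, and 7 of these were Hoxa genes. The Hoxa members took 81.0% to 88.9% of the summed Hox FPKM of a library, the Hoxd members 9.89% to 16.1%, the Hoxb members 0.737% to 2.91% and the Hoxc members 0% to 0.335%. A further 20 members had reads but a mean below 1 FPKM, and 10 had no read in any library. Each library had 6 to 9 members at 1 FPKM or more.

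**Figure D1:**
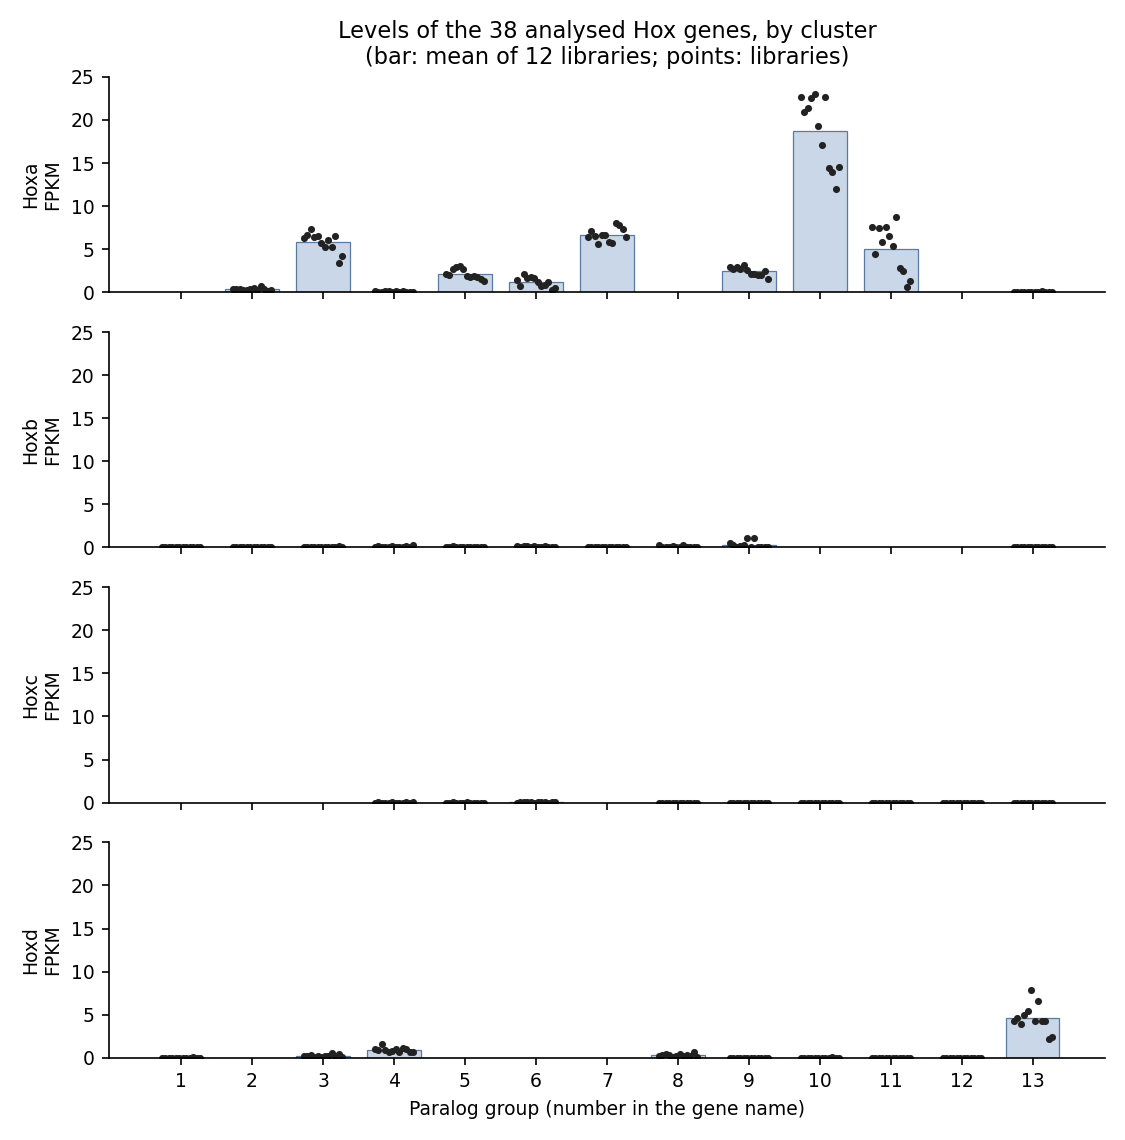
FPKM (y axis, 0 to 25 in every panel) of the 38 analysed Hox genes against paralog group (x axis), 1 panel per cluster; bars are means of 12 libraries and points are libraries. Hoxa10 stands highest at a mean of 18.7 FPKM, Hoxd13 alone rises in the Hoxd panel at 4.58 FPKM, and the Hoxc panel is flat near 0. A slot with neither bar nor points holds no analysed gene.

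The start regions of 4 genes are shown because they bracket the pattern: the highest Hoxa gene, the expressed gene with the largest fold change, the single strong Hoxd gene and a Hoxd neighbor without a read. Each line gives the 250 bases before the transcription start, 5′ to 3′ on the gene's strand, from the RefSeq promoter table on GRCm38.p6. Capitals mark each copy of the GC box letters GGGCGG or their reverse complement CCGCCC, the core that SP-family factors recognize. The windows are chr6:52240855-52241104 on the minus strand for Hoxa10, chr6:52245811-52246060 on the minus strand for Hoxa11, chr2:74667975-74668224 on the plus strand for Hoxd13 and chr2:74697513-74697762 on the plus strand for Hoxd9.
Hoxa10: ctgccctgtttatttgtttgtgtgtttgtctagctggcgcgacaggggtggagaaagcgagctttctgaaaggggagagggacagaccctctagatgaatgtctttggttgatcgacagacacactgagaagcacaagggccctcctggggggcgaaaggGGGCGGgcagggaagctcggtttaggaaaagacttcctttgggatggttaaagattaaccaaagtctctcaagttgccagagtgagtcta
Hoxa11: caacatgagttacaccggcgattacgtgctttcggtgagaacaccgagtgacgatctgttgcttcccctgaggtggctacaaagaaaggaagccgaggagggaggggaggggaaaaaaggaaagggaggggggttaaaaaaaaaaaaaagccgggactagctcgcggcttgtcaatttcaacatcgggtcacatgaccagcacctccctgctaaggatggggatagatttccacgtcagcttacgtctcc
Hoxd13: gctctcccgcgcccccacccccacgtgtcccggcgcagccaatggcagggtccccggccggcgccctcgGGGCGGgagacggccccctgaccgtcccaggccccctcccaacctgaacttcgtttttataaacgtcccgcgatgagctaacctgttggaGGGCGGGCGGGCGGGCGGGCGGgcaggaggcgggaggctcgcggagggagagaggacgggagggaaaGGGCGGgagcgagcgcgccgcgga
Hoxd9: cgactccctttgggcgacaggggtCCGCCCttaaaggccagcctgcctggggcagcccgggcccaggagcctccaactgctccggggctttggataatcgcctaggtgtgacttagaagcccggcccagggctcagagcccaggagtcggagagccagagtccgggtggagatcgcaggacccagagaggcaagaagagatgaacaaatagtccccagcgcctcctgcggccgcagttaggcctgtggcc

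The Hoxd13 window held 7 copies of the motif, 5 of them overlapping in 1 run, and 31 CpG dinucleotides at 74.4% GC. Among all 32851 promoter windows of the table, 0.411% held at least 7 copies and 5.19% held at least 31 CpG. Hoxa10 had 1 copy, 7 CpG and 51.6% GC, Hoxa11 had 0 copies, 13 CpG and 52% GC, and Hoxd9 had 1 copy, 13 CpG and 65.2% GC. The table covered 22 of the 38 members, including the 8 expressed ones. Of the expressed members, 4 of 8 held the motif, against 5 of 14 other members and 32.7% of all windows. CpG counts ran from 3 to 31 in the expressed members and from 2 to 35 in the others, so expressed and low members overlapped in both features. Hoxa13, with 0 to 2 reads a library, had 35 CpG and 5 copies.

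By position along the axis, all 3 classes were present. In paralog groups 1 to 3, 1 of 7 members was expressed, and the class took 11.1% to 17.0% of the summed Hox FPKM. In groups 4 to 8, 3 of 15 were expressed, with 17.0% to 33.4%. In groups 9 to 13, 4 of 16 were expressed, with 53.7% to 71.8%. These shares depend on the gene lengths behind the deposited FPKM. With the lengths of all exons in GENCODE M21, the mean of Hoxa3 fell from 5.81 to 1.58 FPKM.

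In the most anterior class the expressed gene was Hoxa3, which acts in the pharyngeal arches and is needed for thymus and parathyroid formation. Its level was 6.29, 6.68 and 7.38 FPKM in the intracranial IgG libraries, 6.44, 6.55 and 5.69 FPKM under intracranial therapy, 5.27, 6.03 and 5.24 FPKM in both-tumor IgG and 6.53, 3.42 and 4.20 FPKM in both-tumor therapy. Except for 2 both-tumor therapy libraries, the values lay close together. Its neighbor Hoxa2, which patterns the second pharyngeal arch, was far lower at a mean of 0.377 FPKM, with 6 to 25 reads in each library. Hoxd3 had 2 to 20 reads a library, and Hoxb3 0 to 4. Hoxd3 shares 62.8% of its exon bases with other genes, Hoxb3 52.9% and Hoxa3 27.1%, so reads there may be split or lost in counting. Hoxd1 had 2 reads in 1 library, and Hoxb1 and Hoxb2 had none.

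In the middle class, the adjacent genes Hoxa5, Hoxa6 and Hoxa7 were expressed, while Hoxa4 next to them was nearly silent with 0 to 6 reads a library. Hoxa5 acts in lung and cervical skeleton development. It measured 2.11, 1.97 and 2.75 FPKM in intracranial IgG, 2.88, 3.0 and 2.72 FPKM in intracranial therapy, 1.89, 1.73 and 1.90 FPKM in both-tumor IgG and 1.72, 1.59 and 1.32 FPKM in both-tumor therapy. The 3 both-tumor therapy values were below all other 9, by a narrow gap of 1.72 against 1.73 FPKM. The share of all genes split this way is not given here. Hoxa6 measured 1.37, 0.776 and 2.11 FPKM, then 1.61, 1.75 and 1.64 FPKM, then 1.17, 0.720 and 0.888 FPKM, then 1.19, 0.231 and 0.525 FPKM in the same order of groups. Its intracranial therapy values were tight, and its both-tumor therapy values spread over 4 to 22 reads. Hoxa7, a regulator of trunk identity, was the steadiest expressed member. It measured 6.41, 7.11 and 6.50 FPKM, then 5.64, 6.70 and 6.59 FPKM, then 5.89, 5.73 and 8.07 FPKM, then 7.82, 7.31 and 6.44 FPKM, so all 4 groups overlapped. Hoxa7 shares 20.4% of its exon bases with other genes.

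In the Hoxb and Hoxc clusters the middle genes were close to silent. Hoxb4, Hoxb5, Hoxb6 and Hoxb8 had 0 to 14 reads in any library, Hoxb7 had 1 read in all 12, and Hoxc4, Hoxc5 and Hoxc6 had 0 to 2. The highest Hoxc value in any library was 0.108 FPKM. Hoxd4, a paralog of Hoxa4, was just outside the expression limit at a mean of 0.941 FPKM (range 0.700 to 1.57), where Hoxa6 was just inside at 1.16 FPKM. Hoxd4 shares 52.3% of its exon bases with other genes, so reads there may be split or lost in counting. Hoxd8 stood at a mean of 0.309 FPKM.

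The posterior class was led by Hoxa10, known for its roles in uterus, limb and blood cell development. It measured 22.6, 20.9 and 21.3 FPKM in intracranial IgG, 22.6, 23.1 and 19.3 FPKM in intracranial therapy, 17.1, 22.7 and 14.4 FPKM in both-tumor IgG and 13.9, 12.04 and 14.6 FPKM in both-tumor therapy. It was the highest member in 12 of 12 libraries and alone took 32.9% to 42.9% of the summed Hox FPKM. Hoxa9, a regulator of blood progenitors, measured 2.95, 2.71 and 2.89 FPKM, then 2.70, 3.12 and 2.54 FPKM, then 2.13, 2.10 and 2.03 FPKM, then 2.02, 2.49 and 1.53 FPKM. The values of the 2 groups with an extracranial tumor all lay below those of the 2 groups without one. The gap was narrow, at 2.49 against 2.54 FPKM. Hoxa11, which patterns the forearm and the uterus, was the most variable expressed member. It measured 7.59, 4.47 and 7.42 FPKM, then 5.85, 7.63 and 6.59 FPKM, then 5.42, 8.68 and 2.78 FPKM, then 2.48, 0.669 and 1.28 FPKM. The both-tumor therapy values lay below the other 9, and the lowest and highest library differed 12.98-fold. How many of all genes were split as Hoxa9 or as Hoxa11 is not given here.

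Hoxd13, which patterns digits and the genital tubercle, was the only expressed gene of the Hoxd cluster. It measured 4.28, 4.58 and 3.87 FPKM in intracranial IgG, 4.92, 5.49 and 7.82 FPKM in intracranial therapy, 4.32, 6.65 and 4.25 FPKM in both-tumor IgG and 4.23, 2.14 and 2.38 FPKM in both-tumor therapy. The neighbors toward the middle of the cluster had almost no reads. Hoxd12 had 1 read and Hoxd10 had 2 over all 12 libraries, and Hoxd9 and Hoxd11 had 0. The same held for the posterior end of Hoxa, with 0 to 2 Hoxa13 reads a library, and for Hoxb13, with 1 read in all. Hoxb9 was the one Hoxb gene to reach 1 FPKM. It had 57 reads in intracranial therapy replicate 3 and 57 in both-tumor IgG replicate 2, 0 to 25 in the other 10 libraries, and 4, 0 and 0 in both-tumor therapy.

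The 10 members without a read were Hoxb1, Hoxb2, Hoxc8, Hoxc9, Hoxc10, Hoxc11, Hoxc12, Hoxc13, Hoxd9 and Hoxd11. A count of 0 allows up to 3 reads, which is 0.135 to 0.163 CPM (reads scaled to library size only) in 1 library and 0.0125 CPM over all 239886091 reads. This limit covers counting error only.

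By mean level the order was Hoxa10 (18.7 FPKM), Hoxa7 (6.68), Hoxa3 (5.81), Hoxa11 (5.07), Hoxd13 (4.58), Hoxa9 (2.43), Hoxa5 (2.13) and Hoxa6 (1.16). Hoxa10 exceeded Hoxa7 in 12 of 12 libraries, and Hoxa5 exceeded Hoxa6 in 12. Hoxa3 and Hoxa11 each led the other in 6 of 12, as did Hoxa11 and Hoxd13, so these neighbors in the order do not differ beyond their spread. The order depends on the gene lengths behind the deposited FPKM. The deposited values imply 1639 bases for Hoxa3 and 1501 for Hoxa9, while all exons in GENCODE M21 cover 6014 and 5580 bases. With the longer lengths, Hoxa10 stayed first at 9.66 FPKM, Hoxa11 followed at 4.86 FPKM and Hoxd13 at 4.58 FPKM, and Hoxa9 fell under the limit at 0.655 FPKM.

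Comparisons between groups used the 13 members with enough reads, which were Hoxa2, Hoxa3, Hoxa5, Hoxa6, Hoxa7, Hoxa9, Hoxa10, Hoxa11, Hoxb9, Hoxd3, Hoxd4, Hoxd8 and Hoxd13. They were tested within 1 fit over 15925 genes by edgeR's quasi-likelihood test with Benjamini-Hochberg adjustment and a threshold of 0.05. The other 25 members were too low to test. In bulk RNA, fewer cells of a type and less RNA per cell cannot be told apart. The labels call the libraries biological triplicates.

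Mice with both tumors were compared under therapy with mice that had only the brain tumor, to ask how the extracranial tumor altered the treated brain tumor. The posterior genes Hoxa11, Hoxa10 and Hoxd13 and the trunk gene Hoxa5 were lower in the both-tumor therapy group, and Hoxa7 differed by less than its error. In all, 6 of 13 members fell and 0 rose, beside 21% of all genes called lower and 45.4% called in either direction. The median log2 fold change was -0.54 over the 13 members and 0.03 over all genes tested.

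Hoxa11 fell most among the 8 expressed members, from 6.69 ± 0.90 to 1.48 ± 0.92 FPKM (SD, n = 3), a log2 fold change of -2.26 ± 0.51 (SE, adjusted p = 0.00654). The 2 groups did not overlap. Hoxa5 changed by -0.97 ± 0.21 on the log2 scale (adjusted p = 0.006), from 2.87 ± 0.14 to 1.54 ± 0.20 FPKM. Hoxa10 changed by -0.75 ± 0.18 (adjusted p = 0.00802), from 21.6 ± 2.1 to 13.5 ± 1.3 FPKM. Hoxd13 changed by -1.13 ± 0.30 (adjusted p = 0.0131), from 6.08 ± 1.54 to 2.92 ± 1.15 FPKM. Each of these genes had all 3 both-tumor therapy libraries below all 3 intracranial therapy libraries. That separation was seen in 7 of 13 members, with Hoxa6, Hoxa9 and Hoxb9 as the others, beside 24% of all genes.

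The calls of Hoxa6 (-1.42 ± 0.53, adjusted p = 0.0478) and Hoxb9 (-4.20 ± 1.57, adjusted p = 0.0488) stood near the threshold. Both rest on few reads, with 4 to 22 and 0 to 4 a library in the both-tumor therapy group. Hoxa6 was still called in 4 of 12 fits that left out 1 library, and Hoxb9 in 4 of 12. The log2 fold change of Hoxb9 moved between -7.65 and -3.04 in those fits and came to -0.50 in limma on log2(FPKM + 1). Hoxa5, Hoxa10 and Hoxa11 stayed past the threshold in all 12 of those fits and in 7 of 7 other settings. Hoxd13 did so in 10 of 12 and 7 of 7. Hoxa7 had a log2 fold change of 0.12 ± 0.18 (adjusted p = 0.623), which turned to -0.32 (adjusted p = 0.357) when libraries were scaled to Pmel.

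**Figure D2:**
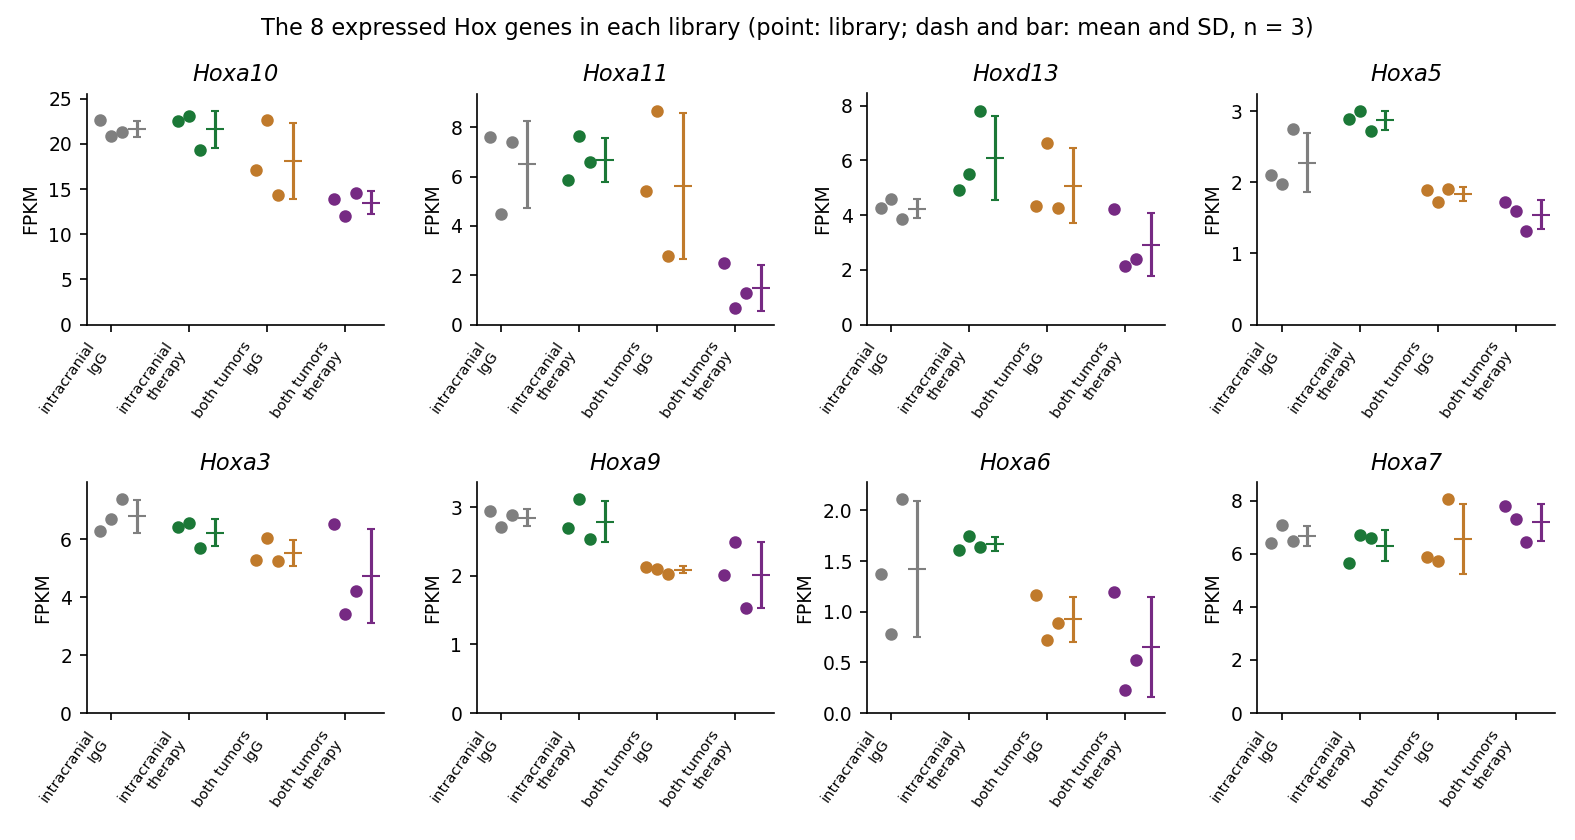
FPKM (y axis, from 0) of the 8 expressed Hox genes in the 4 groups (x axis); points are libraries, and the dash and bar give the mean and SD of 3 libraries. Hoxa11 in both-tumor therapy lies between 0.669 and 2.48 FPKM, below the other 9 libraries, while Hoxa7 overlaps in all 4 groups.

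Markers of other cell types are given for the same comparison because they share its libraries. The both-tumor therapy group was higher for 12 of 12 neuron markers, 8 of 8 oligodendrocyte markers, 6 of 7 astrocyte markers, 9 of 9 microglia and macrophage markers and 6 of 7 T cell markers. It was higher for 3 of 6 endothelial, 1 of 8 pericyte and fibroblast, 1 of 2 tested epidermis and 0 of 4 tested skeletal muscle markers. No marker of these lists was called lower. The pericyte and fibroblast markers summed to 99.0 to 352 FPKM under intracranial therapy and 46.1 to 417 FPKM under both-tumor therapy. The summed T cell markers were 1.60 to 7.26 FPKM under intracranial therapy and 41.0 to 82.6 FPKM under both-tumor therapy. Their part in the lower Hox levels was not tested. The melanocyte list moved little, with 1 of 12 genes higher (Trpm1, at 0.77 ± 0.25), 0 lower and a median log2 fold change of 0.18. Blood progenitors and neutrophils include cells that use Hoxa genes. Of their 8 listed markers, 4 had a mean of at least 1 FPKM, and the list summed to 17.1 to 26.9 FPKM under intracranial therapy and 23.7 to 26.96 FPKM under both-tumor therapy. Of 5 tested, 2 were higher in both-tumor therapy, Cd34 (0.97 ± 0.19) and Flt3 (3.67 ± 0.91), and Kit was lower (-1.02 ± 0.35). Among all genes 24.4% were called higher and 21% lower. Cd34 is also made by vessels and Kit by melanocytes. The markers Mpo, Elane and Ly6g reached at most 0.156, 0.110 and 0.148 FPKM in any library. They are therefore not among the 4 markers with a mean of at least 1 FPKM and do not stand for the whole list. The part of these cells in the Hox levels was not tested.

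With both tumors present, therapy was compared with IgG, the contrast in which the antibodies act on a brain tumor alongside an extracranial one. Hoxa11 was lower, at 5.63 ± 2.95 FPKM under IgG and 1.48 ± 0.92 FPKM under therapy (SD, n = 3). Its log2 fold change was -1.98 ± 0.51 with an adjusted p of 0.0498, and the libraries did not overlap. It was the only one of 13 members called, beside 4.14% of all genes called lower and 5.39% in either direction. That adjusted p is also the smallest of any gene in the contrast. The call was kept in 3 of 7 other settings and in 3 of 12 fits without 1 library, while the log2 fold change stayed between -2.57 and -1.38. Without both-tumor IgG replicate 2, the library with the highest Hoxa11, it was -1.47 with an adjusted p of 0.158. Markers of other cells were fitted higher under therapy in the same contrast, with median log2 fold changes of 1.46 for neuron, 2.06 for oligodendrocyte, 1.48 for astrocyte, 1.87 for microglia and macrophage and 2.89 for T cell genes. Of these lists, 1 of 12, 2 of 8, 0 of 7, 1 of 9 and 0 of 7 genes were called, and 1, 8, 4, 7 and 5 had an unadjusted p under 0.05. The share of all genes at that unadjusted limit is not given here, so the latter counts have no background beside them. Their part in the Hoxa11 difference was not tested.

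Next by p in that contrast came Hoxd13, at -0.84 ± 0.30 (adjusted p = 0.0942), and Hoxa10, at -0.45 ± 0.18 (adjusted p = 0.114). Hoxd13 and Hoxa5 joined Hoxa11 in having all therapy libraries below all IgG libraries, so 3 of 13 members did, beside 19.1% of all genes. The median over the members was -0.28 against 0.02 over all genes. This contrast shares its therapy libraries with the one before, so the 2 sets of values are not independent.

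In mice with only the brain tumor, 0 of 13 members were called for therapy against IgG, as were 0% of all genes. At an unadjusted p under 0.05 there were 0 of 13 members, beside 13.5% of all genes. DESeq2 also called 0 members while it called 1025 of 19059 genes, and the edgeR fit of the compared groups alone called 0 members and 839 of 14560 genes. Hoxd13 had the smallest adjusted p, 0.459, at a log2 fold change of 0.57 ± 0.30, and its 3 therapy libraries all lay above the 3 IgG libraries (1 of 13 members, beside 6.11% of all genes). Hoxa2 alone lay below in all 3 (1 of 13, beside 16.2%). Hoxa5 followed at 0.38 ± 0.21 (adjusted p = 0.481) and Hoxd4 at -0.42 ± 0.30 (adjusted p = 0.605). The median over members was 0.02. Brain markers were fitted far lower under therapy in this contrast, with median log2 fold changes of -5.25 for neuron, -2.54 for oligodendrocyte and -2.60 for astrocyte genes. edgeR called none of them, and 12 of 12, 5 of 8 and 4 of 7 had an unadjusted p under 0.05. Their part in the Hox values was not tested.

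Under IgG, both-tumor mice were compared with brain-tumor-only mice, which asks about the extracranial tumor without treatment. Again 0 of 13 members were called by edgeR or DESeq2, beside 0% of all genes, and 0 of 13 had an unadjusted p under 0.05, beside 1.18%. The smallest p were those of Hoxa9 (-0.45 ± 0.23), Hoxa10 (-0.25 ± 0.18) and Hoxa5 (-0.31 ± 0.21), each with an adjusted p of 1. Hoxa3, Hoxa5 and Hoxa9 had all 3 both-tumor libraries below the 3 intracranial ones, which is 3 of 13 members beside 3.08% of all genes. For Hoxa9 these values were 2.85 ± 0.12 and 2.09 ± 0.05 FPKM (SD, n = 3). For Hoxa3 they were 6.78 ± 0.56 and 5.51 ± 0.45 FPKM.

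Whether therapy acted differently with and without an extracranial tumor was tested as an interaction. Hoxd13 was the only member called, at -1.40 ± 0.43 on the log2 scale (adjusted p = 0.0427), beside 9.93% of all genes called lower and 22% in either direction. Its therapy effect was 0.57 in brain-tumor-only mice and -0.84 in both-tumor mice. Hoxa11 had the larger estimate, -2.07 ± 0.69, and an adjusted p of 0.0547. Hoxb9 came next by p at -4.79 ± 2.0 (adjusted p = 0.102). The Hoxd13 call was kept in 5 of 6 other settings but in only 2 of 12 fits without 1 library. It was lost with scaling to Pmel (adjusted p = 0.0523), and without both-tumor IgG replicate 2 it was -1.12 (adjusted p = 0.081). In the same interaction 12 of 12 neuron markers (median 6.81), 7 of 8 oligodendrocyte, 4 of 7 astrocyte and 7 of 9 microglia and macrophage markers were called higher, and 0 of 7 T cell markers. Their part in the Hoxd13 value was not tested.

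**Figure D3:**
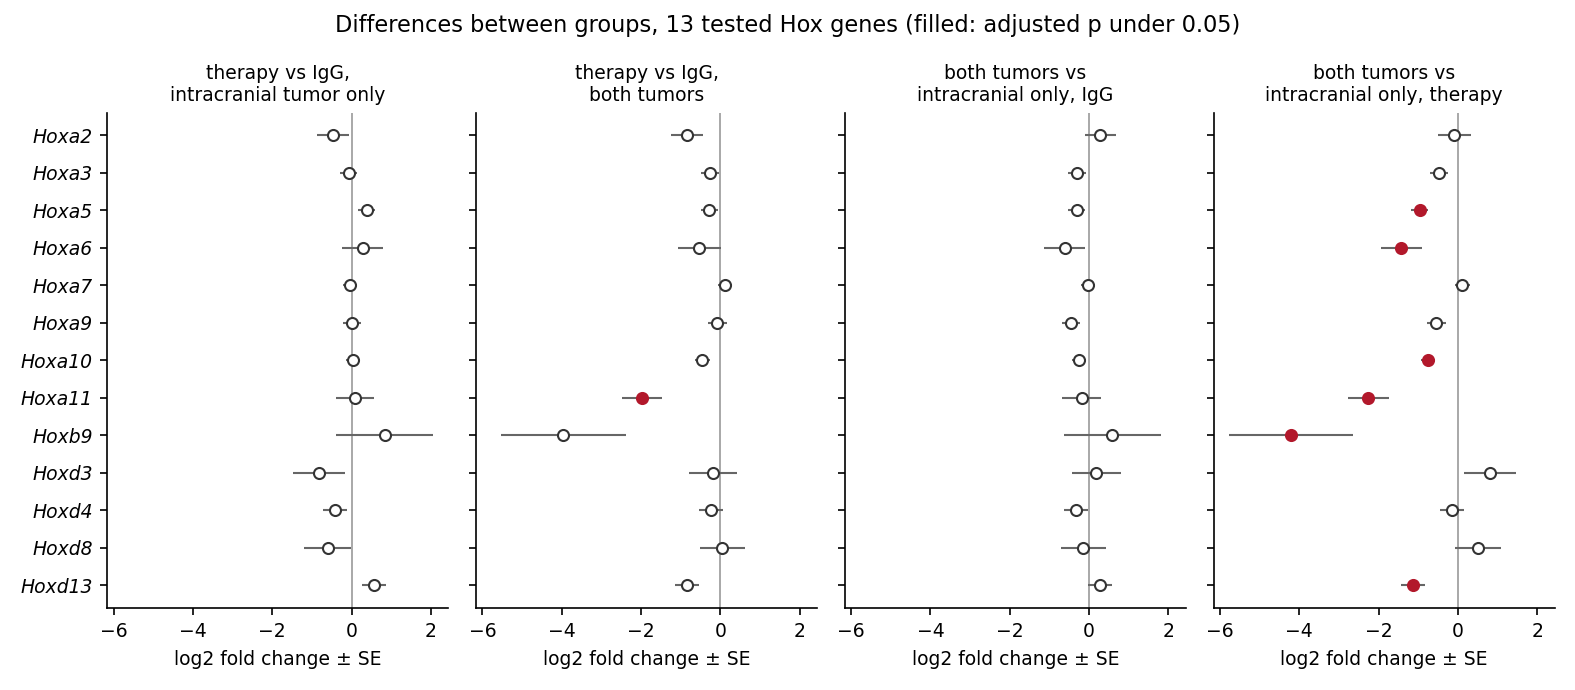
log2 fold change with SE (x axis) of the 13 tested Hox genes (rows) in 4 comparisons (panels) from the edgeR fit; filled points have an adjusted p under 0.05. Filled points lie left of 0 in 2 panels: Hoxa11 at -1.98 for therapy with both tumors, and 6 genes for both tumors against intracranial only under therapy.

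Pmel encodes the amyloid protein of the melanosome and was used as a tumor-cell reference. Its level was 2880 ± 474 FPKM in intracranial IgG, 2656 ± 517 in intracranial therapy, 3049 ± 548 in both-tumor IgG and 3641 ± 207 in both-tumor therapy (SD, n = 3). The summed Hox FPKM came to 1.96% ± 0.38, 2.21% ± 0.52, 1.67% ± 0.60 and 0.993% ± 0.111 of Pmel in the same order. Hoxa10 alone was 0.769% ± 0.166, 0.837% ± 0.198, 0.623% ± 0.268 and 0.372% ± 0.049 of Pmel. In both-tumor therapy its 3 libraries had 0.363%, 0.329% and 0.425%, below the other 9. That separation of Hoxa10 did not hold with other pigment genes as the reference. Relative to Dct, both-tumor therapy replicate 3 stood at 0.432%, above both-tumor IgG replicates 1 and 3 at 0.366% and 0.302%. Relative to Mitf, both-tumor therapy had 2.39%, 4.26% and 4.81%, and those 2 IgG libraries 3.28% and 3.05%. Hoxa11 was 0.0647%, 0.0183% and 0.0373% of Pmel in both-tumor therapy, against 0.0861% to 0.357% in the other 9. It was also below the other 9 relative to Dct and to Mitf. For these separations from the other 9 libraries, the share of all genes is not given here. Hoxa7 stood at 0.236% ± 0.037, 0.246% ± 0.067, 0.218% ± 0.043 and 0.197% ± 0.008, with overlapping groups.

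Dividing by Pmel widened the spread of 8 of 8 expressed members. The coefficient of variation over 12 libraries was 37.7% for Hoxa10 relative to Pmel and 21.8% as FPKM, and 18.8% and 11.6% for Hoxa7. Scaling all libraries to Pmel moved the median of all genes to -0.39 in the comparison of both-tumor with intracranial therapy, and 66.1% of calls were then lower, against 46.3% with the usual scaling. The 6 Hox calls were kept, with Hoxa10 at -1.17 and Hoxa5 at -1.39, and Hoxa3 and Hoxa9 were added. With that scaling the Hoxa11 call for therapy with both tumors was lost (adjusted p = 0.0824).

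**Figure D4:**
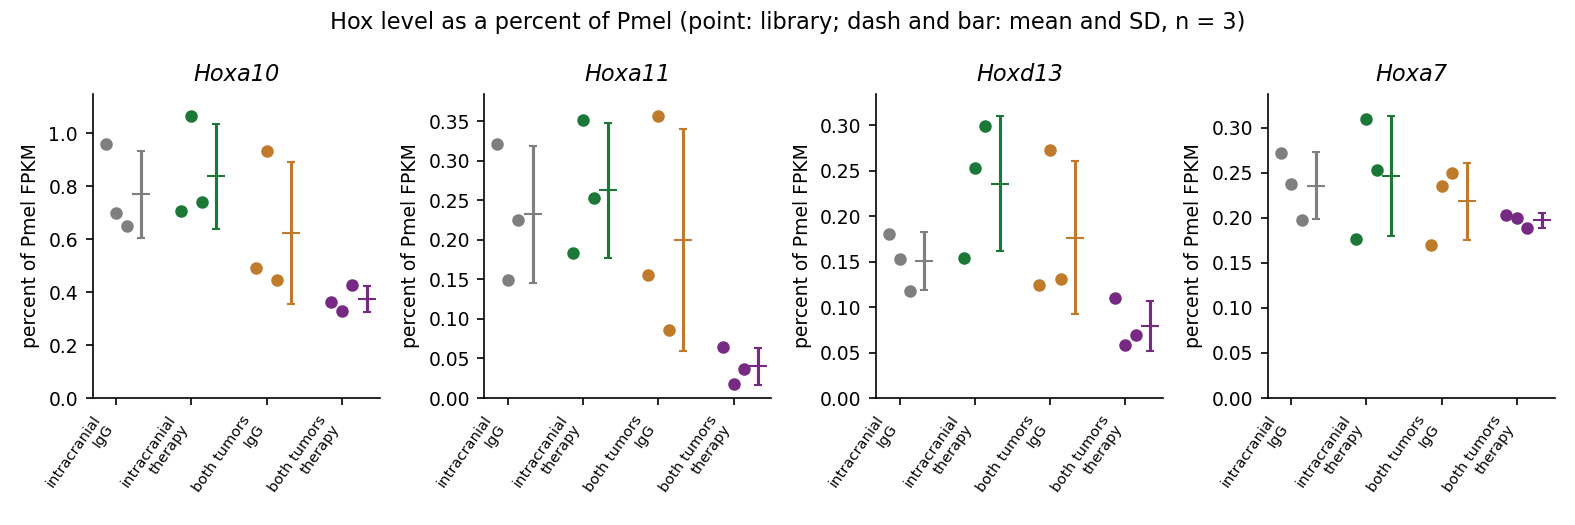
Level of 4 Hox genes as a percent of Pmel FPKM (y axis, from 0) in the 4 groups (x axis); points are libraries, and the dash and bar give the mean and SD of 3 libraries. Hoxa10 in both-tumor therapy lies between 0.329% and 0.425%, below the other 9 libraries, and Hoxa7 overlaps in all groups.

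The members did not keep fixed proportions. Hoxa11 per Hoxa10 was 0.299 ± 0.074 in intracranial IgG, 0.310 ± 0.045 in intracranial therapy, 0.298 ± 0.096 in both-tumor IgG and 0.107 ± 0.064 in both-tumor therapy (SD, n = 3). Hoxa7 per Hoxa10 ran the other way, with 0.309 ± 0.028, 0.294 ± 0.046, 0.386 ± 0.158 and 0.537 ± 0.085. A ratio of 2 genes within a library does not depend on its scaling.

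Hoxa11os, the RNA read from the strand opposite Hoxa11, was the neighbor of the clusters with the smallest p. It measured 2.86, 3.23 and 4.52 FPKM in intracranial IgG, 2.73, 3.14 and 3.36 FPKM in intracranial therapy, 2.33, 3.88 and 2.02 FPKM in both-tumor IgG and 1.05, 0.580 and 0.526 FPKM in both-tumor therapy. The both-tumor therapy values were again the lowest, and the share of all genes with that order is not given here. Its log2 fold change was -2.17 ± 0.37 (adjusted p = 0.00455) for both tumors against intracranial only under therapy and -1.97 ± 0.37 (adjusted p = 0.0498) for therapy with both tumors. Exons of other genes cover 35.0% of the Hoxa11 exon bases, all of it on the opposite strand. The sources used here do not state whether strand was used in counting, so reads of Hoxa11 and Hoxa11os may not be separable.

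**Figure D5:**
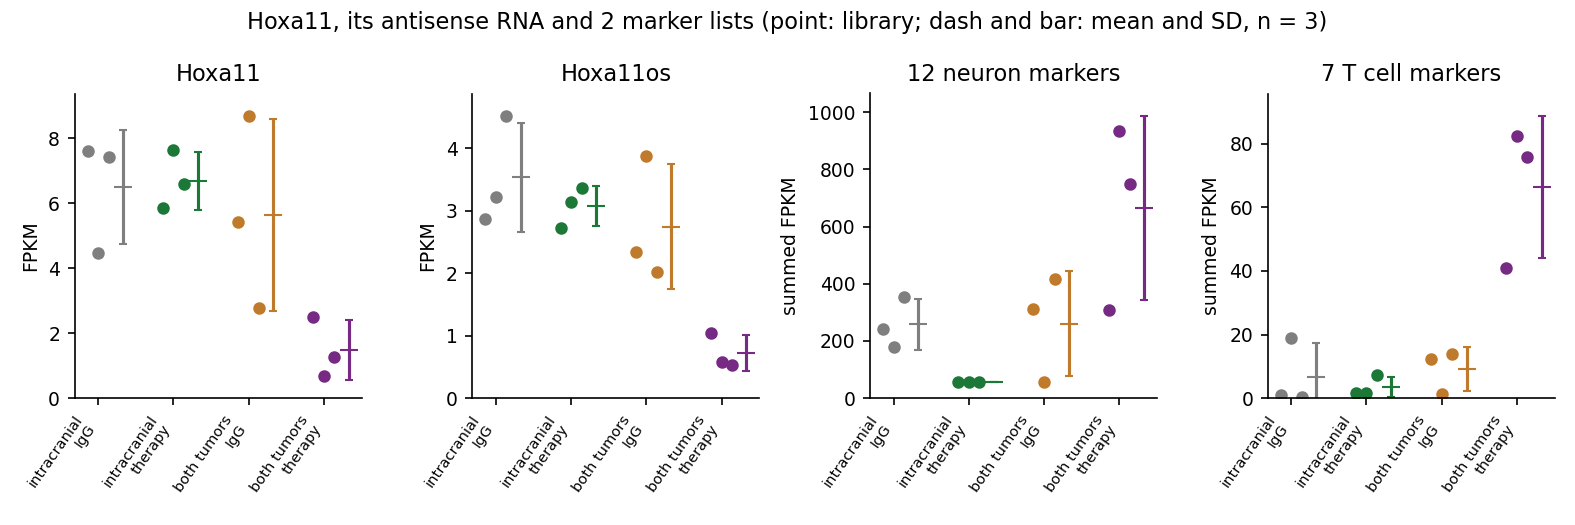
Hoxa11 and Hoxa11os in FPKM and the summed FPKM of 12 neuron and 7 T cell markers (y axes, from 0) in the 4 groups (x axis); points are libraries, and the dash and bar give the mean and SD of 3 libraries. Both RNAs are lowest in both-tumor therapy, where the T cell markers reach 41.0 to 82.6 FPKM.

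Of the 30 listed cluster neighbors and noncoding RNAs, 13 were tested. In the comparison of both-tumor with intracranial therapy 4 fell and 2 rose, beside 21% of all genes called lower and 24.4% called higher. Beside Hoxa11os, the neighbors with the smallest p were Cbx5 (-0.72 ± 0.14), which encodes heterochromatin protein HP1 alpha beside the Hoxc cluster, and Smug1 (-0.55 ± 0.11), a uracil DNA glycosylase next to it. Cbx5 measured 71.0 to 136 FPKM and Smug1 4.70 to 7.62 FPKM, while no Hoxc member exceeded 0.108 FPKM. Of the 30 listed neighbors, 26 were among the deposited genes, and 9 of these had no read in any library. Among them were Hotair and Hottip, the long noncoding RNAs of the Hoxc and Hoxa clusters (named after their values were seen). The others that changed were Lnpk (-0.64 ± 0.16), Snx10 (1.10 ± 0.34) and Skap1 (4.0 ± 1.46), flanking genes of the Hoxd, Hoxa and Hoxb clusters. Snx10 and Skap1 are also made by myeloid and T cells, whose markers rose in the same libraries; their part was not tested.

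The TALE cofactors were present throughout. All 9 had a mean above 1 FPKM, and their sum was 139 to 181 FPKM. Meis2 (49.1 FPKM), Pbx2 (36.8 FPKM) and Pknox1 (19.7 FPKM) were the highest by mean. Under therapy, both-tumor mice were higher than brain-tumor-only mice for 3 of 9, among them Pbx2 (0.41 ± 0.09, adjusted p = 0.00735) and Meis3 (1.22 ± 0.35, adjusted p = 0.0169), and lower for Pknox1 (-0.51 ± 0.15, adjusted p = 0.0209). The median was 0.14, and these counts stand beside 24.4% of all genes called higher and 21% called lower.

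Genes of Polycomb repressive complex 2, which methylates histone H3 at silent Hox clusters, fell more often than they rose in that comparison, with 8 lower and 2 higher of 11 and a median of -0.50. Ezh2, its methyltransferase, measured 111, 118 and 90.8 FPKM in intracranial therapy and 45.6, 21.4 and 34.6 FPKM in both-tumor therapy (-1.73 ± 0.28, adjusted p = 0.00455). Suz12, a core subunit, fell by 0.84 ± 0.14 on the log2 scale, and Ezh1, the alternative methyltransferase, rose by 0.70 ± 0.12, as did the accessory subunit Phf1 by 0.52 ± 0.18. Of 13 genes of Polycomb repressive complex 1, 5 were lower and 3 higher, with Phc1 (-0.43 ± 0.10), Cbx2 (-1.55 ± 0.36) and Rnf2 (-0.35 ± 0.08) first by p; those higher included Cbx7 and Cbx6, at 0.84 ± 0.27 and 0.47 ± 0.16. Of 10 trithorax-type and demethylase genes, which act against Polycomb, 6 were lower and 0 higher, with Ash2l (-0.60 ± 0.09), Dot1l (-0.75 ± 0.16) and Wdr5 (-0.75 ± 0.22) first by p. These shares stand beside 21% lower and 24.4% higher among all genes. The lists were chosen with earlier results known.

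Retinoic acid and a set of upstream factors switch Hox genes on in the embryo. Of 19 listed genes of this kind, 15 were tested, and 5 rose and 0 fell in both-tumor against intracranial therapy, beside 24.4% of all genes called higher and 21% lower. Their median log2 fold change was 0.27, and 6 of 15 were fitted below 0. Among those with the smallest p were Aldh1a1 (3.55 ± 0.74), a retinaldehyde dehydrogenase, and Egr2 (2.33 ± 0.51), a hindbrain factor also made by activated T cells. The microglia, macrophage and T cell markers given above rose in the same libraries, and their part was not tested.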

How the data were processed

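Bulk RNA-seq of 12 brain tumors was analysed from the authors' deposited gene counts and FPKM. Per the submitters' processing notes, TopHat2 2.0.12, Bowtie2 2.2.3 and HTSeq 0.6.1 were used with GRCm38/mm10; the annotation release and the use of strand are not given in the sources used here. Per the labels' protocols, total RNA went through a NEBNext Ultra RNA library kit. The deposited FPKM equal count over length over library total with 1 length a gene (relative tolerance 1e-06, 16062 genes with a read in every library).

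Of 47069 gene IDs, 46488 matched a symbol. Counts were tested with edgeR 4.0.16 (quasi-likelihood, TMM, filterByExpr, 4 group means, Benjamini-Hochberg over 15925 genes, R 4.3.3); the script was tested on simulated data. Groups come from the labels, and replicate numbers follow accession order. Alternatives were RLE factors, scaling to Pmel, no filter, DESeq2 1.42.0, limma 3.58.1 on log2(FPKM + 1) and log2(FPKM + 0.1), the compared groups alone, and leaving out each library. Exon lengths from GENCODE M21 were added after seeing the data.

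The members and gene lists were chosen with earlier results of these data known. Every library value is given for members with a mean of at least 1 FPKM. Fold changes are given for members past the threshold, the 3 with the smallest p in each comparison, and members just described. From each list, at most 3 genes with the smallest p are named, or the highest FPKM where none passes; list genes named to complete a small count were chosen after their values were seen. Some genes that this rule would name are not reported here.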

Additional observations from a re-analysis of the deposited data

Results flagged for a closer look

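The fitted Hoxd13 response to therapy differed between mice with and without an extracranial tumor. The interaction was -1.40 on the log2 scale (SE 0.43, edgeR adjusted p = 0.0427). Hoxd13 was the only 1 of 13 members called, beside 22% of all genes called in either direction and 9.93% lower. The 3 therapy libraries lay above the 3 IgG libraries in brain-tumor-only mice, as in 6.11% of all genes. They lay below them in both-tumor mice, as in 19.1% of all genes. That second gap was narrow, with 4.23 FPKM in therapy replicate 1 against 4.25 FPKM in IgG replicate 3. The call was kept in only 2 of 12 fits without 1 library and lost with scaling to Pmel (adjusted p = 0.0523). Without both-tumor IgG replicate 2, whose neuron markers stood apart at 55.8 FPKM, it was -1.12 (adjusted p = 0.081). No test for single libraries far from their group was run, since the groups are of 3.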

How the results depend on the processing

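No paired analysis was possible because the labels carry no replicate numbers that groups share. For therapy with both tumors, the count of members called moved from 1 to 0 with RLE factors, scaling to Pmel, no filter or the compared groups alone, to 3 with DESeq2, and to between 0 and 2 when 1 library was left out. RLE, Pmel scaling, no filter and the compared groups alone called 0 of all genes there, against 858 of 15925 in the reported fit. DESeq2 called 3103 of 15823, and the 2 fits that called 2 members called 2064 genes (replicate 3 of both-tumor IgG left out) and 2394 genes (replicate 1 of both-tumor therapy left out). For the interaction, the count moved from 1 to 0 with scaling to Pmel, to 2 with no filter, to 3 with DESeq2, and to between 0 and 3 without 1 library. All genes called there were 3505 in the reported fit, 1771 with Pmel scaling, 3092 of 28788 with no filter, 4715 of 17981 with DESeq2, and 0 to 4367 without 1 library. For both tumors against intracranial only under therapy, it lay between 3 and 7 without 1 library, against 6 (lowest, 3, without intracranial therapy replicate 3 or both-tumor therapy replicate 2). Counts of 0 in the remaining 2 comparisons stayed 0 in every setting run. The 8 expressed members stayed 8 without any 1 library. The mean Hoxa share of 86.2% became 81.8% from raw counts and 79.4% with GENCODE M21 lengths, and the Hoxd share of 12.3% became 16.4% and 18.6%. Relative to Pmel, the log2 difference of both-tumor and intracranial therapy was -1.15 for Hoxa10 (-0.84 with Dct and -0.80 with Mitf as reference), -1.37 for Hoxa5 (-1.06 and -1.03) and -0.28 for Hoxa7 (0.031 and 0.065, a turned sign). The cause of these shifts was not tested. Low counts limit Hoxb9 and Hoxa6, and the 25 untested members have no call.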

Other observations

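Homeobox genes of the forebrain moved with the neuron markers. Of 16 listed forebrain genes, 11 were tested. In both-tumor against intracranial therapy 7 were higher and 1 lower, beside 24.4% of all genes called higher and 21% lower. The median log2 difference of the 11 was 2.45. Among those with the smallest p were Lhx2 (5.41 ± 1.09), which acts in cortex specification, and Lhx6 (2.45 ± 0.59), which acts in interneurons. All 12 neuron markers rose in the same comparison.

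Of 10 listed homeobox and T-box genes of posterior and limb mesenchyme, 5 had a mean above 1 FPKM and 7 were tested. In that comparison edgeR called 0 of them, beside 45.4% of all genes, and 0 had an unadjusted p under 0.05. Tbx4, which marks the hindlimb and lung mesenchyme, measured 14.7 to 19.0 FPKM over the 12 libraries, and Tbx15, a factor of dermal and skeletal precursors, 5.92 to 13.3 FPKM.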
